A study of Sus scrofa with 4 samples.

Results

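The genes described here start, limit or dissolve blood clots: the coagulation trigger F3, the anticoagulants TFPI and THBD, the protease inhibitors A2M and SERPING1, and the plasminogen activators PLAT and PLAU. They were taken as the probe sets that the annotation of the porcine array assigns to a list of 9 gene symbols, which gave 9 probe sets of 7 genes among 24123 probe sets on the array and 6765 annotated genes. The other 2 symbols of the list, PLAUR (the urokinase receptor) and F13A1 (the A subunit of factor XIII, which crosslinks fibrin), have no probe set under their name in that annotation and were not analysed here. A2M has 3 probe sets, called here the brightest, the second and the dimmest by their mean signal, and every other gene has 1. The Entrez gene IDs are 396677 (F3), 100155068 (TFPI), 100157642 (THBD), 403166 (A2M), 100144304 (SERPING1), 397121 (PLAT) and 396985 (PLAU).

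Heart tissue of female Chinese Bama minipigs, 4 months old, was profiled after myocardial infarction (MI), made by permanent ligation of the left circumflex coronary artery. There were 4 arrays: the infarct zone and the border zone of hearts given myoblasts, and both zones of control hearts. According to the methods, the myoblast transplantation group received human skeletal myoblasts in DMEM by intramyocardial injection and the control treatment group DMEM alone, both with cyclosporin A. The labels call the control hearts untreated, and the paper also describes an MI group given neither DMEM nor cyclosporin A, so a ratio of myoblast over control could also hold those differences. With 1 array for each zone and treatment there is no spread between minipigs, no test was made, and neither labels nor methods give the number of minipigs for each array or say whether the zones came from the same heart. The grafted cells were human and the probes porcine, and what human RNA adds to a signal was not tested. Of 5 skeletal myoblast markers measured, 0 had a ratio of myoblast over control above 1 in each zone and 3 were below 1 in each. Only 1 of the 5 lay above the array median on all arrays, DES, which was also on the list of smooth muscle markers. The others were under the median on every array, so whether graft RNA was present cannot be read from these counts.

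Coagulation begins when tissue factor, the product of F3, meets factor VII of the blood and so leads to thrombin, which makes fibrin. Tissue factor pathway inhibitor (TFPI) stops that first step, and thrombomodulin (THBD), on endothelium, turns thrombin toward the activation of protein C. Fibrin is dissolved by plasmin, which the tissue-type (PLAT) and urokinase-type (PLAU) activators make from plasminogen, while alpha-2-macroglobulin (A2M) traps proteases of many kinds and C1 inhibitor (SERPING1) blocks C1s, kallikrein and factor XII. Cardiac muscle is known for a high content of tissue factor.

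Values are MAS 5.0 signals in linear units on arrays scaled to a common mean. The median signal was 142 (infarct zone) and 139.5 (border zone) with myoblasts, against 137 and 139 in control hearts, and a signal under it is called dim here. Probes at the 3' end of GAPDH over those at its 5' end, which follow RNA integrity, had a ratio of 1.38 and 1.73 with myoblasts against 1.52 and 1.55 in control hearts, and that of EF1A 2.49 and 3.01 against 4.13 and 4.17. The EF1A ratio was lower on both myoblast arrays than on both control arrays. It thus differed along the treatment comparison, and what this adds to a ratio of myoblast over control was not tested. The heart label was checked on cardiomyocyte markers, and all 12 measured lay above the median of every array. This check does not cover the zone labels. The summed cardiomyocyte signal was not lower in the infarct zone, at 1.07 times the border zone with myoblasts and 1.16 times in control hearts. How much infarcted tissue the infarct zone arrays hold was not tested. No marker of a cell type list used here stood at the lowest signal on any array. A probe set was called at 2-fold, the threshold in the methods. To show how far apart signals of like size lay in general, the middle 90% of the ratios of all probe sets in the same band of mean signal is given beside a ratio. These ranges hold true differences as well as error.

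F3 and 2 of the 3 A2M probe sets were lower with myoblasts in both zones, dim TFPI was higher in both, and PLAU was higher in the infarct zone and near control in the border zone, while THBD, PLAT and SERPING1 had ratios between 0.782 and 1.35. In the infarct zone, 1 of the 9 probe sets was at least 2-fold higher with myoblasts (TFPI), beside 10.5% of all probe sets, and 2 were at least 2-fold lower (F3 and A2M), beside 9.58%. In the border zone, 1 was at least 2-fold higher (TFPI again), beside 9.95%, and 2 were at least 2-fold lower (both of A2M), beside 10.4%. Most of those calls over all probe sets are dim. Among probe sets whose higher signal exceeded the median of its array, 3.37% were higher and 2.55% lower in the infarct zone, and 3.41% and 2.83% in the border zone. Of the 6 clotting probe sets among them, 0 were higher and 2 lower in the infarct zone (F3 and A2M), and 0 were higher and 1 lower in the border zone (A2M). With so few members these counts are a description. The median log2 ratio of the 9 probe sets was -0.35 in the infarct zone and 0.02 in the border zone, against 0.01 and 0.0018 over all probe sets.

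**Figure D1:**
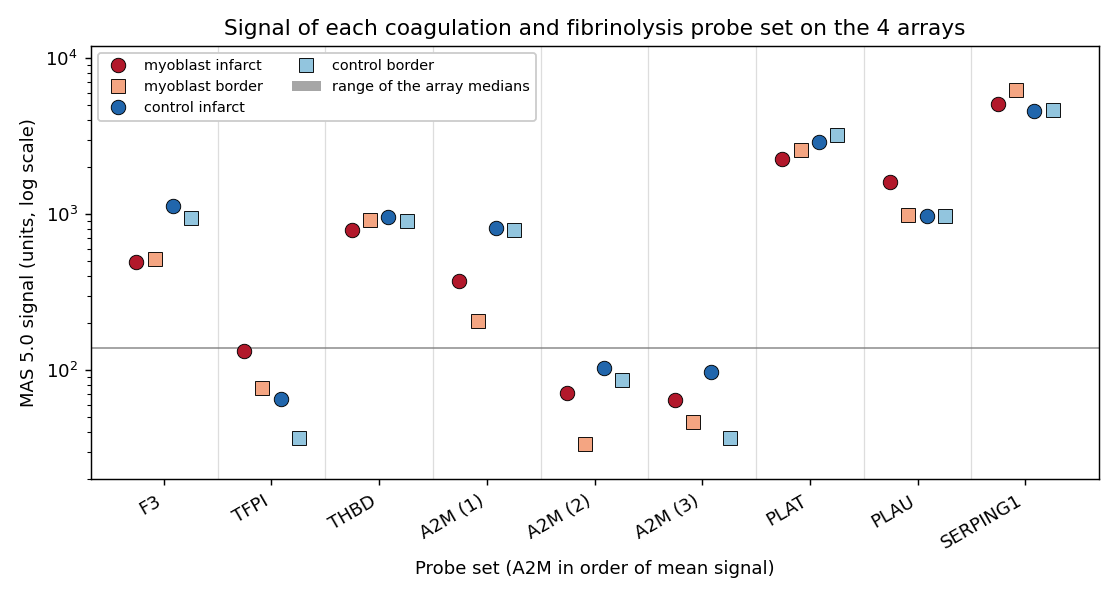
MAS 5.0 signal (y axis, log scale, units) of each of the 9 probe sets (x axis) on the 4 arrays, 1 point for each array, with the array medians (137 to 142) as a grey line; the A2M probe sets are numbered by falling mean signal. Both myoblast points of F3 and of the brightest A2M probe set lie under both control points, those of TFPI over them but under the grey line.

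F3, which encodes tissue factor, gave signals of 495 (infarct zone) and 513 (border zone) with myoblasts, against 1126 and 946 in control hearts. Both myoblast arrays were thus under both control arrays, and the zones of one treatment lay closer together than the treatments. The ratio of myoblast over control was 0.440 in the infarct zone and 0.542 in the border zone, the second short of 2-fold. The paper's list of inflammation-related genes gives F3 at the first of these values, from these same arrays, and names no zone for it. Both fell outside the middle 90% of ratios at this signal (512 to 2048 units), which ran from 0.645 to 1.57 in the infarct zone and from 0.630 to 1.63 in the border zone. Cardiomyocyte markers were lower as well, but by less: 10 of 12 had ratios under 1 in both zones, and their summed signal was 0.798 and 0.869 times control (241040 and 226071 units with myoblasts, against 301930 and 260056). NPPA, the atrial natriuretic peptide gene of the same list, ran the other way, with 4218 and 9119 units with myoblasts in the infarct and border zone against 1246 and 2153 in control hearts, ratios of 3.38 and 4.24. The part of cardiomyocyte content in the F3 values was not tested. In bulk tissue, fewer cells of a type cannot be told apart from less RNA per cell.

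TFPI, the inhibitor of tissue factor, was dim on every array. Its signals were 132 and 76.7 with myoblasts in the infarct and border zone, against 65.2 and 36.9 in control hearts. Each zone had about the same ratio, 2.03 in the infarct zone and 2.08 in the border zone, and the log2 ratios of the zones differed by -0.04 (infarct minus border). At 32 to 128 units, however, the middle 90% of probe sets reached 2.50 and 2.29, so ratios of this size were common at this signal. Centring each array on its median brought the infarct zone log2 ratio to 0.97, under 2-fold, and since all 4 signals were under the array medians, a floor at the median leaves no TFPI value to compare.

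THBD, the thrombin receptor of endothelium, differed little from control. It gave 790 and 916 units with myoblasts in the infarct and border zone, against 959 and 903 in control hearts, and the arrays of the treatments overlapped. The ratios, 0.823 and 1.01, lay on opposite sides of 1 and inside the middle 90%. Of 14 endothelial markers, 8 had ratios over 1 in each zone and 3 had ratios under 1 in each, and their summed signal was 18925 and 14404 units with myoblasts against 10760.2 and 11903 in control hearts. VCAM1, an adhesion molecule, alone gave 8269 and 5747 of those units with myoblasts, against 2762 and 3618 in control hearts. SELE, the selectin of activated endothelium, had the highest ratios of the list, with 176 and 200.5 units with myoblasts against 1.89 and 5.09 in control hearts, where it was far under the median. TIE1 of the same list passed 2-fold downward in each zone, at 0.414 and 0.192 times control, but was dim on every array. Whether endothelial content entered the values of THBD and TFPI was not tested.

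A2M, a protease trap of plasma and tissue that also binds plasmin and thrombin, had the lowest ratio of the 9 probe sets, in the border zone. Its brightest probe set gave 374 and 206 units with myoblasts in the infarct and border zone, against 817 and 799 in control hearts. The control zones were nearly alike, and both myoblast arrays lay well under them, the border zone lower than the infarct zone. The ratio was 0.457 in the infarct zone, where the middle 90% ran from 0.645 to 1.57, and 0.258 in the border zone, where it ran from 0.571 to 1.78. The other 2 probe sets, which rest on one and the same transcript record, were dim and differed from each other. The second had 71.7 and 33.5 with myoblasts against 103 and 86.7 in control hearts, ratios of 0.698 and 0.387, the second of them under the middle 90% at 32 to 128 units, which began at 0.420 in the infarct zone and 0.412 in the border zone. The dimmest had 64.1 and 46.9 against 97.0 and 36.6, ratios of 0.661 and 1.28, both inside that range, so in the border zone it lay on the other side of control from the brighter ones. In the infarct zone all 3 were lower with myoblasts.

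SERPING1, the inhibitor of C1s and of the contact system, stood at or above the 96.8th percentile of all probe sets on every array. Signals were 5089 and 6261 with myoblasts in the infarct and border zone, against 4614 and 4632 in control hearts. Both myoblast arrays were the higher ones, by ratios of 1.10 and 1.35, inside the middle 90% at this signal (0.655 to 1.48, and 0.648 to 1.58). A ratio of that size was therefore no larger than those of many other bright probe sets.

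The plasminogen activators differed from each other. PLAT, made by endothelium, had 2261 and 2565 units with myoblasts in the infarct and border zone, against 2891 and 3243 in control hearts. Both myoblast arrays were lower than both control arrays, with nearly equal ratios of 0.782 and 0.791, each inside the middle 90%. PLAU, the activator that cells use at their surface, had 1613 and 996 units with myoblasts, against 976 and 972 in control hearts. A single array stood apart, the infarct zone after myoblast transplantation, while the other 3 lay between 972 and 996 units. The PLAU ratio was 1.65 in the infarct zone, past the 95th percentile of 1.57 but short of 2-fold, and 1.02 in the border zone.

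**Figure D2:**
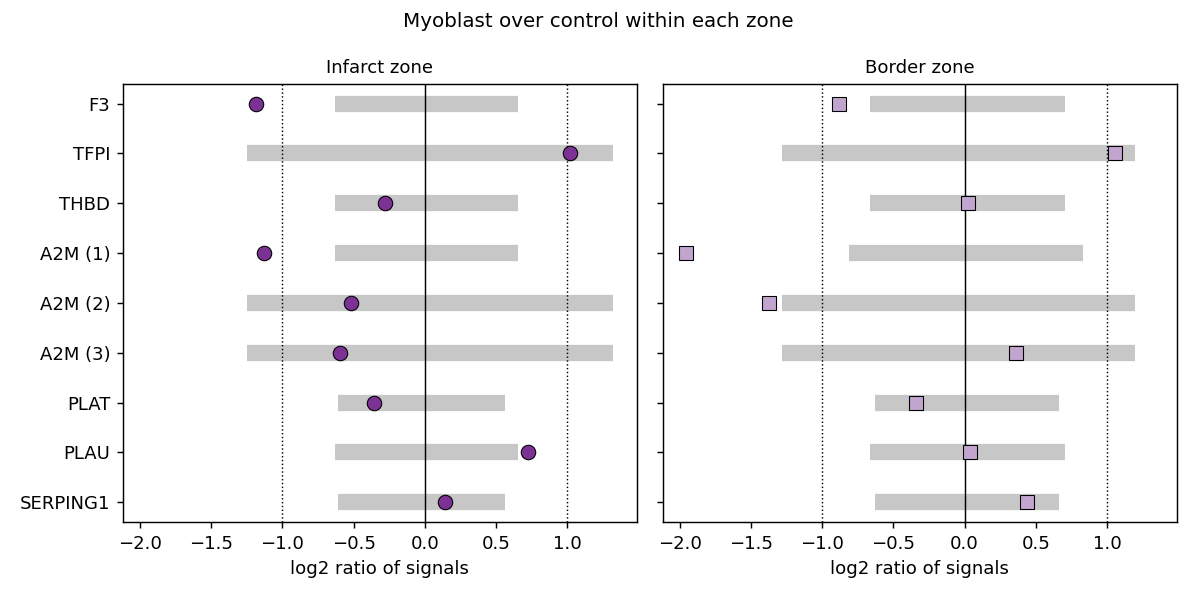
The x axis is the log2 ratio of myoblast over control and the y axis the 9 probe sets, in the infarct zone (left, circles) and the border zone (right, squares). Grey bars span the middle 90% of all probe sets in the same band of mean signal and dotted lines mark 2-fold; F3 (-1.19 and -0.88) and the brightest A2M probe set (-1.13 and -1.96) lie left of their bars in both zones.

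Markers of macrophages, which express PLAU, were also higher in part. Of 11 measured, which do not include CD68 or CSF1R, 6 had ratios over 1 in each zone and 0 had ratios under 1 in each. Their summed signal was 17730.0 and 13635 units with myoblasts in the infarct and border zone, against 11416 and 10526 in control hearts. The infarct zone array with myoblasts had the highest PLAU signal and the highest macrophage sum. In the border zone, the macrophage sum was 1.30 times control and PLAU 1.02 times. The paper reports fewer CD11b-positive cells with myoblasts by staining. ITGAM, the gene of CD11b, was dim on every array, with ratios of 0.668 in the infarct zone and 3.25 in the border zone. The part of macrophage content in the PLAU values was not tested. CTSS, a cathepsin of phagocytes and the brightest of the 11, had 7942 and 6796 units against 4947 and 4923. Fibroblast markers differed by zone, their sum being 67225 and 108185 units with myoblasts against 80222 and 81380. Their part in the values of PLAU, A2M and SERPING1 was not tested.

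Between the zones of control hearts the bright clotting genes were nearly level, and after myoblast transplantation 2 of them were not. In control hearts 1 of the 9 probe sets was at least 2-fold higher in the infarct zone than in the border zone (the dimmest of A2M, 97.0 against 36.6 units, a ratio of 2.65 where the middle 90% ended at 2.25), beside 8.95% of all probe sets, and 0 were lower, beside 8.25%. With myoblasts, 1 was at least 2-fold higher (another dim one of A2M, 71.7 against 33.5, a ratio of 2.14 where it ended at 2.40), beside 9.77%, and 0 were lower, beside 8.18%. Of the 6 probe sets over the array median none was 2-fold apart in either direction. Among all such probe sets, 1.36% were higher and 2.32% lower in the infarct zone with myoblasts, and 0.525% and 0.700% in control hearts.

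PLAU and the brightest A2M probe set were the ones apart between zones with myoblasts. PLAU had 1613 units in the infarct zone against 996 in the border zone, a ratio of 1.62 where the middle 90% ended at 1.43. In control hearts its zones had 976 and 972 units, a log2 ratio of 0.0065. A2M had 374 against 206, a ratio of 1.82 where the middle 90% ended at 1.59, and 1.02 in control hearts. TFPI had nearly the same zone ratio in each treatment, 1.72 with myoblasts (132 against 76.7 units) and 1.77 in control hearts (65.2 against 36.9), both inside the range of dim probe sets. SERPING1 had 0.813 with myoblasts and 0.996 in control hearts, PLAT 0.881 and 0.891, THBD 0.862 and 1.06, and F3 0.964 and 1.19. All these lay inside the middle 90%, which was narrower between the control arrays (0.774 to 1.26 at 512 to 2048 units) than between the myoblast arrays (0.657 to 1.43).

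**Figure D3:**
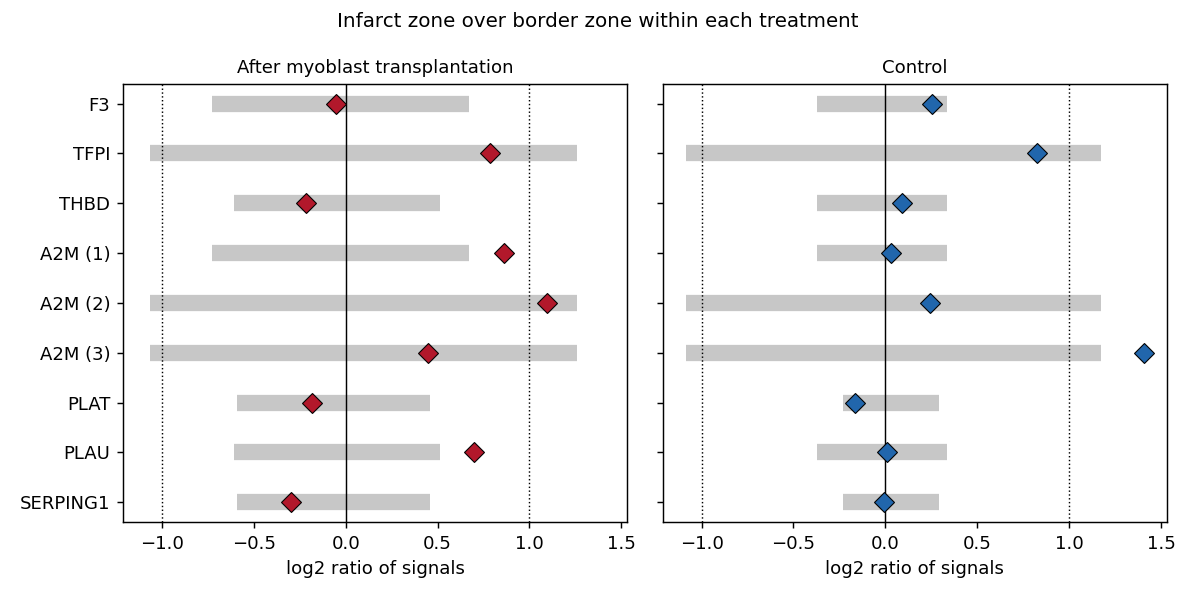
Log2 ratio of the infarct zone over the border zone (x axis) of each probe set (y axis) after myoblast transplantation (left) and in control hearts (right), with the middle 90% of all probe sets of like signal as grey bars and 2-fold as dotted lines. PLAU (0.70) and the brightest A2M probe set (0.86) lie right of their bars with myoblasts and near 0 in control hearts.

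Ordered by array, F3 was highest in the control infarct zone, followed by the control border zone, and the myoblast zones, 495 and 513 units, did not differ beyond the spread of like probe sets. The brightest A2M probe set had the same order of treatments, but its control zones were level and its myoblast zones apart. PLAT was highest in the control border zone and lowest in the myoblast infarct zone, with every zone and treatment ratio inside the middle 90%. TFPI, PLAU and SERPING1 had their highest signals on a myoblast array, in the infarct zone for TFPI and PLAU and in the border zone for SERPING1. In 7 of the 9 probe sets the ratio of myoblast over control was on the same side of 1 in both zones, a share of 77.8%, beside 60.4% of all probe sets.

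Other genes of clotting and fibrinolysis came from 5 lists with 41 gene symbols, of which 26 had an annotated probe set, taken as the brightest of each gene. In the infarct zone 3 of the 26 were at least 2-fold higher with myoblasts, beside 10.5% of all probe sets, and 3 at least 2-fold lower, beside 9.58%. In the border zone 5 were higher, beside 9.95%, and 0 lower, beside 10.4%. For 12 of them the higher signal exceeded the array median in both zones, and of those 12 none was 2-fold apart in the infarct zone, beside 3.37% higher and 2.55% lower of all such probe sets, and 1 was higher in the border zone, beside 3.41%. This was TFPI2, a protease inhibitor related to TFPI and deposited in matrix, with 3261 and 7655 units with myoblasts in the infarct and border zone against 3281 and 3213 in control hearts, named after its values were seen. A single array, the border zone after myoblast transplantation, stood apart for TFPI2, and its ratios were 0.994 and 2.38. Between zones, 1 of the 26 was at least 2-fold higher and 3 lower in the infarct zone with myoblasts, beside 9.77% and 8.18% of all probe sets, and 3 higher and 2 lower in control hearts, beside 8.95% and 8.25%. TFPI2 was the only such gene among the 12, at 0.426 times its border zone signal with myoblasts and 1.02 times in control hearts, beside 2.32% lower with myoblasts among all probe sets over the median.

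The list of coagulation factors and cofactors was dim: 1 of 9 genes measured lay above the median on all arrays. This was VWF, the endothelial carrier of factor VIII, with 1181 and 1031 units with myoblasts in the infarct and border zone against 1124 and 1146 in control hearts, ratios of 1.05 and 0.899. The liver makes most other factors, and of 9 hepatocyte markers 1 was above the median on all arrays. F5, the cofactor of factor Xa, passed 2-fold upward in each zone, with 129.7 and 122 units against 50.8 and 21.4. SERPIND1, heparin cofactor II, was so too, with 15.3 and 33.4 units against 4.74 and 5.33, but a second probe set of it gave 1.19 and 1.29 times control. Both genes were named after their values were seen, and all their signals were dim. By the brightest probe set, these were the only ones of the 26 genes past 2-fold in the same direction in each zone. A second, dim probe set of SERPINA5, also named after its values were seen, was lower, at 0.097 and 0.150 times control. The brightest SERPINA5 probe set gave 0.620 and 2.02. Of 5 platelet markers measured, 0 were above the median on all arrays.

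Of the anticoagulant list, 4 of 7 genes lay above the median on all arrays. Its brightest gene was SERPINE2 (protease nexin 1, which inhibits thrombin and plasminogen activators), with 4091 and 7894 units with myoblasts in the infarct and border zone against 7064 and 7763 in control hearts. The low value was that of a single array, the infarct zone after myoblast transplantation, at a ratio of 0.579. In the plasminogen list, 3 of 6 genes measured were above the median on all arrays, and SERPINB2 (plasminogen activator inhibitor 2) was the brightest, with 8854 and 7476 units against 9640 and 6901, ratios of 0.918 and 1.08. The receptor F2RL2 (a thrombin receptor of the protease-activated family) had 3757 and 5592 units against 6143 and 6295, ratios of 0.612 and 0.888. Of 4 receptors listed, the 2 measured were under 1 in both zones, and F2RL1 and F2RL3 had no annotated probe set. The paper lists a proteinase-activated receptor 2-like gene once as lower and once as higher with myoblasts. MCFD2, which helps factors V and VIII leave the cell, had 2003 and 2151 units against 1997 and 2161.

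**Figure D4:**
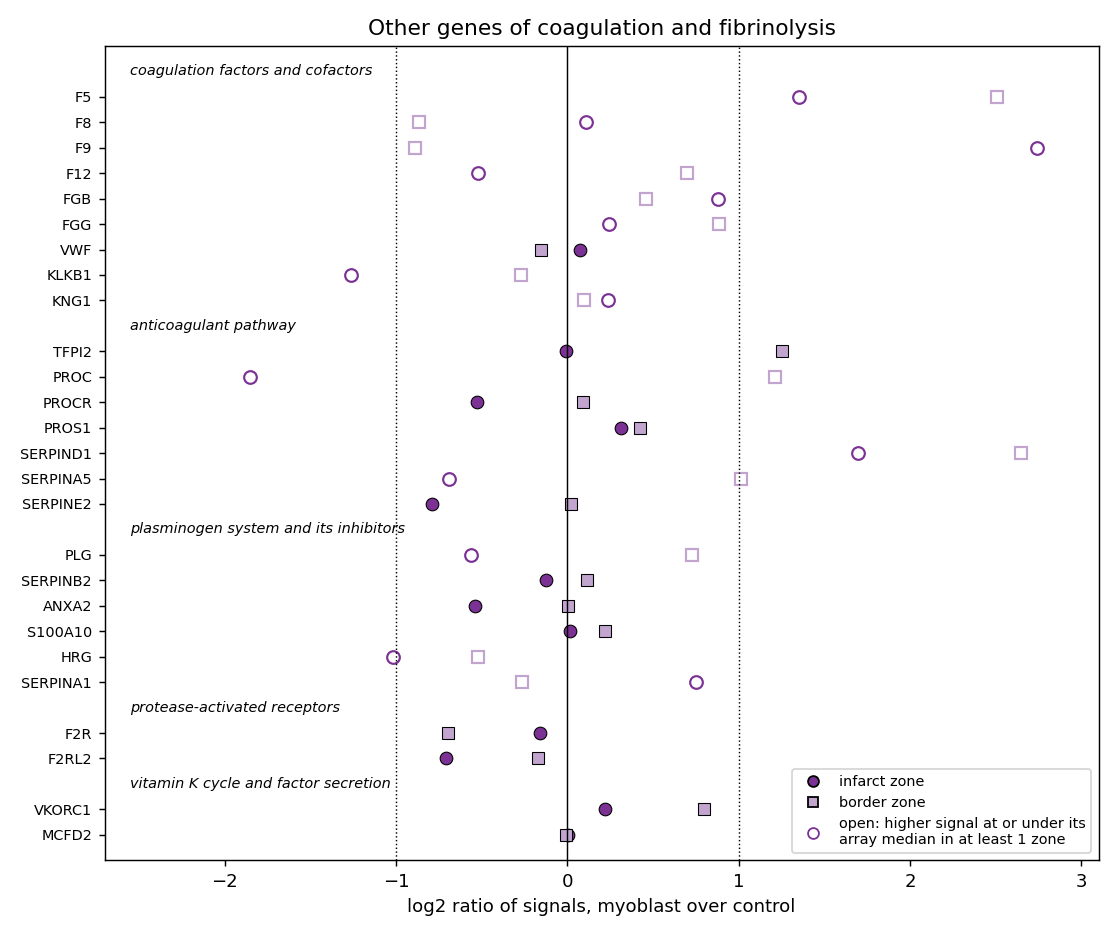
The x axis is the log2 ratio of myoblast over control of 26 other genes of coagulation and fibrinolysis (y axis, by list) in the infarct zone (circles) and the border zone (squares), with 2-fold as dotted lines. Filled points are the 12 genes whose higher signal exceeded the array median in both zones, and of these only TFPI2 passes 2-fold, in the border zone.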

How the data were processed

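RNA was extracted with TRIZOL, labelled with biotin, hybridized by the authors to GeneChip Porcine Genome Arrays (Affymetrix) and normalized with MAS 5.0 in Gene Spring Software, which takes off background and brings all arrays to the same mean signal. The deposited values are log2 signals of 24123 probe sets and were used as deposited; after trimming 2% at each end, the linear signals averaged 500.1 on every array. Gene symbols came from the annotation of the array platform: 10099 probe sets had 1 symbol, 198 several and 13826 none. All 9 probe sets of the members matched the reference by gene ID. MAS 5.0 subtracts mismatch signal, so ratios of dim probe sets are imprecise.

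Log2 signals were subtracted within each zone (myoblast minus control) and within each treatment (infarct minus border), with Python 3.11.15 and pandas 2.3.3. A probe set was called at 2-fold, with no p-value, since each condition has 1 array. The code was tested on simulated data. The members and lists were chosen with earlier results of these data known. Every member probe set is named; of the 5 pathway lists, genes past 2-fold in the same direction in each zone and over the array median (none qualified), otherwise the brightest gene of each list. Cell type markers are named as the brightest of a list or, for NPPA, SELE, TIE1 and ITGAM, after their values were seen. Alternatives were centring on array medians, quantile normalization, a floor at the array's 25th percentile, a floor at its median, and 1 probe set for each gene. Sequences of the probes were not used here.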

Additional observations from a re-analysis of the deposited data

Results flagged for a closer look

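For 3 probe sets a treatment or zone difference ran in opposite directions in the groups compared, each group being 1 array, and none of these differences was tested. The log2 ratio of myoblast over control of the dimmest A2M probe set was lower by 0.957 in the infarct zone than in the border zone (infarct minus border -0.957), with -0.60 in the infarct zone and 0.36 in the border zone. That of THBD differed by -0.302, with -0.28 and 0.02. The log2 ratio of infarct over border of F3 was -0.05 with myoblasts and 0.25 in control hearts, a difference of -0.303.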

How the results depend on the processing

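Each condition has 1 array, so no replicate could be left out, and the depth behind a signal is not given by array intensities. Of 36 log2 ratios of the 9 probe sets, 35 kept their sign where called and their side of 2-fold with quantile normalization. The same number did so with centring on array medians. The counts were 36 with a floor at the 25th percentile and 31 with a floor at the array median. A floor cannot change signals above it, and at the median the dim probe sets keep only the ratio of the floors. The count of 31 is therefore no measure of agreement. The ratios of F3 and of the brightest A2M probe set kept their side with quantile normalization and with centring. The floors could not change them, since every signal of these probe sets lay above its array median. With quantile normalization the count at least 2-fold higher in the infarct zone than in the border zone with myoblasts was 0 in place of 1. With centring on array medians the count higher with myoblasts in the infarct zone was 0 in place of 1 (TFPI). With a floor at the array median, the counts higher with myoblasts were 0 in both zones, the count lower in the border zone was 1 in place of 2, and the counts higher in the infarct than the border zone were 0 in each treatment. The log2 ratio of the second A2M probe set in the border zone became 0.0068 and that of the dimmest A2M probe set between control zones -0.0192, the values of a probe set with every signal at the floor. With 1 probe set for each gene, 1 was lower in the border zone and 0 higher in the infarct than the border zone in each treatment.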
